A study of Mus musculus with 6 samples.

Results

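miR-26 is a small microRNA (miRNA) family whose hairpins lie inside the genes of the Ctdsp phosphatases, and this account follows each of its rows in mouse primary mesangial cells treated with TGF-β1. Members were taken by name, as every row of the hairpins miR-26a and miR-26b on either arm, and 5 of the 778 rows of the table met this rule. They were the guides mmu-miR-26a-5p and mmu-miR-26b-5p and the passengers mmu-miR-26a-1-3p, mmu-miR-26a-2-3p and mmu-miR-26b-3p. Mesangial cells hold the capillary loops of the glomerulus in place, and TGF-β1 is a cytokine that drives kidney fibrosis. All 6 libraries came from cells in medium with 25.5 mM glucose and 20% serum at passages 3 to 6. TGF-β1 was given at 10 ng/ml for 72 h to the cells of 3 libraries (TGF-b1), and the other 3 are labelled Control, with no cytokine named. No source states whether the 3 libraries of a group came from separate cultures, so p-values measure the spread between these libraries, which may be technical. The table holds miRNAs only, so the labelled cell type was not checked against mesangial mRNA markers.

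A miRNA hairpin is cut into a duplex, 1 arm of which (the guide) is loaded into Argonaute and pairs with target mRNAs through its seed, while the other arm (the passenger) is mostly degraded. The miR-26 hairpins sit in introns of Ctdspl, Ctdsp2 and Ctdsp1, which encode small phosphatases that act on the C-terminal domain of RNA polymerase II and on SMAD proteins, the signal carriers of the TGF-β pathway. miR-26 is known for repressing Ezh2, the enzyme that writes the repressive histone mark H3K27me3, and for acting against growth and fibrosis in several tissues. The comparison with Control asks how each guide and, where reads allow, each hairpin of the family behaved after TGF-β1.

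The sequences are shown first because they decide which rows can be told apart. The mature sequences are those of RefSeq (GRCm38.p6), which held all 5 rows and 581 of the 778 rows by name, and capitals mark the seed, bases 2 to 8.
miR-26a-5p: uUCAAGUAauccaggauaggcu
miR-26b-5p: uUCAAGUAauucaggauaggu
miR-26a-1-3p: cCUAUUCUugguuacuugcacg
miR-26a-2-3p: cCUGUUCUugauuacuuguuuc
miR-26b-3p: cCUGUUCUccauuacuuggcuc

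Both guides carry the seed UCAAGUA, and no other row with a RefSeq sequence shares it. Over the 21 bases they have in common, miR-26a-5p and miR-26b-5p differ by C11U and C21U, with positions counted from 1 at the 5′ end, and miR-26a-5p is 22 bases long against 21. Reads that end before position 21 are therefore told apart by 1 base. The passengers differ more, by 6 substitutions between miR-26a-1-3p and miR-26a-2-3p and by 4 between miR-26a-2-3p and miR-26b-3p. The last pair shares the seed CUGUUCU, while A4G separates the seed of miR-26a-1-3p from it.

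The guide of miR-26a is encoded by 2 hairpins and that of miR-26b by 1, so only the passenger rows show which miR-26a locus a read came from. Each hairpin was found once, without a mismatch, on its chromosome in the NCBIM37 genome. Mir26a-1 lies at chr9:118940914-118941003 on the plus strand, in intron 5 of 7 of Ctdspl. Mir26a-2 lies at chr10:126432586-126432669 on the plus strand, in intron 5 of 7 of a Ctdsp2 transcript. The other annotated Ctdsp2 transcript starts an exon on the last base of this hairpin. Mir26b lies at chr1:74440884-74440968 on the plus strand, in intron 4 of 6 of Ctdsp1. All 3 hairpins run on the strand of their host gene. In the hairpins below, capitals mark the guide and then the passenger.
Mir26a-1: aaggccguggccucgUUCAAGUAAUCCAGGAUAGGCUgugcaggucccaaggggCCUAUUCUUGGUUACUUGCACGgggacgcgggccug
Mir26a-2: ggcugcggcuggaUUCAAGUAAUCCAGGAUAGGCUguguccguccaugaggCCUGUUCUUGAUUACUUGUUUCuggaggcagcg
Mir26b: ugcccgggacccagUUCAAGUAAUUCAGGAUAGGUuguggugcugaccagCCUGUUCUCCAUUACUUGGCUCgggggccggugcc

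Aligned over their whole length, guide included, the hairpins had 72.5% of alignment columns identical between Mir26a-1 and Mir26a-2, 68.5% between Mir26a-1 and Mir26b, and 66.3% between Mir26a-2 and Mir26b. Their predicted minimum free energies were -49.4 kcal/mol for Mir26a-1, -44.5 for Mir26a-2 and -43.5 for Mir26b.

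Levels are given in RPM, the reads of a row per 1000000 reads of the library total. The recovered library totals ran from 16478281 to 20169254 reads. The listed rows summed to 79.6% ± 0.142 of the total in the 3 Control libraries and 72.3% ± 0.752 in the 3 TGF-b1 libraries (SD). A read counted in several rows would enter this sum more than once. Among 31 pairs of tested rows matched by name, 3 held rows that differed by at most 1% in every library, as rows counting the same reads would. How many other rows shared reads was not tested. An RPM value thus depends on what else a library holds, and the 408 tested miRNAs had a median log2 change of -0.17 on this scale and of -0.07 after TMM scaling, which centres on the bulk of the rows. Cells that contribute fewer reads and cells that contain less of a miRNA cannot be told apart in such bulk libraries.

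miR-26a-5p was present at 588, 521 and 523 RPM in Control replicates 1 to 3, and at 215, 179 and 189.8 RPM in TGF-b1 replicates 1 to 3. Every TGF-b1 library was below every Control library, and the highest TGF-b1 value was less than the lowest Control value by more than the spread inside either group. The mean fell from 544 ± 38.1 to 195 ± 18.2 RPM (SD, n = 3 each), to 35.8% of Control. On the log2(RPM + 1) scale this was a change of -1.48 ± 0.10 (SE), with a limma adjusted p of 4.17e-05 over all 408 tested miRNAs. The study placed miR-26a-5p on its list of lowered miRNAs from these same libraries, so its fall here is not independent evidence.

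miR-26b-5p, which carries the same seed, was present at 619, 511 and 525 RPM in Control and at 363, 385.5 and 397 RPM in TGF-b1. The groups again did not overlap, but the fall was smaller. The mean went from 552 ± 58.8 to 382 ± 16.9 RPM (SD, n = 3 each), to 69.2% of Control. The log2 change was -0.53 ± 0.10 (SE), with a limma adjusted p of 0.0036, and it did not reach the fold threshold of 1 on the log2 scale. This smaller fall depended on the scaling. With median-of-ratios factors it was -0.31 and missed the threshold (limma adjusted p = 0.0523). DESeq2 on the recovered reads, run with its own factors of the same kind, gave -0.32 (DESeq2 adjusted p = 0.0912). miR-26a-5p stayed beyond -1 with an adjusted p under 0.05 under every scaling, test and left-out library tried.

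**Figure D1:**
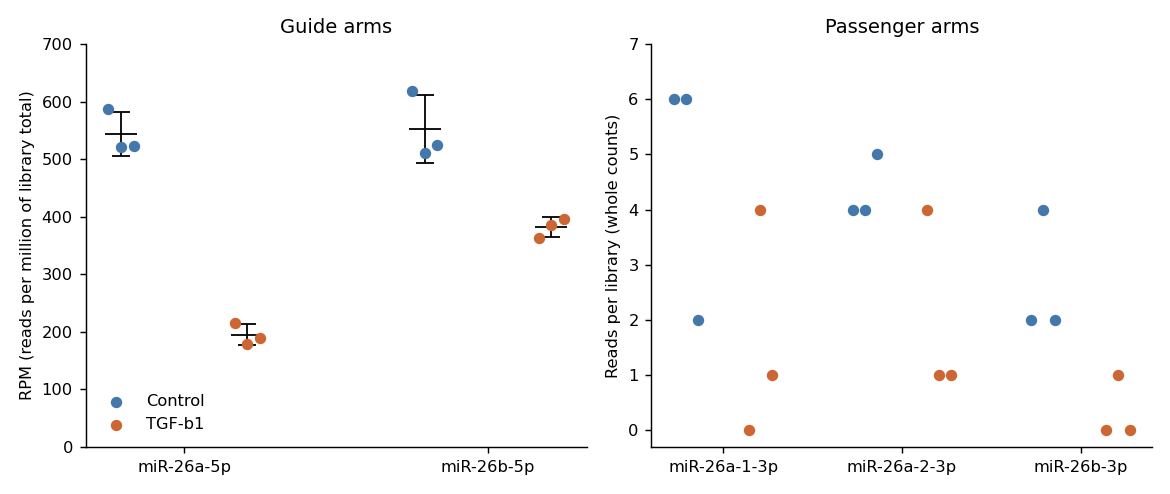
Left, RPM of the 2 miR-26 guides in each library, with points for libraries and bars for the mean ± SD (n = 3 per group). Right, whole reads of the 3 passenger rows in each library; miR-26a-5p in TGF-b1 lies between 179 and 215 RPM, miR-26b-5p between 363 and 397 RPM, and no passenger row exceeds 6 reads.

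Both tested members were thus lower at an adjusted p under 0.05 by limma, where 31.9% of all 408 tested miRNAs were, and 1 of them, miR-26a-5p, also passed the fold threshold, where 7.84% did. Groups that did not overlap, with TGF-b1 below Control, were found for both guides and for 36% of all tested miRNAs. With the fold threshold, 32 miRNAs were lower and 18 higher on library totals, and 24 were lower and 25 higher with TMM. Only 17 of the 408 tested miRNAs had a more negative log2 change than miR-26a-5p, while 104 had a more negative one than miR-26b-5p. In order of mean level, miR-26a-5p went from place 48 of the 778 rows in Control to place 59 in TGF-b1. miR-26b-5p went from place 47 to place 44, so its RPM fell while its place in the order did not.

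**Figure D2:**
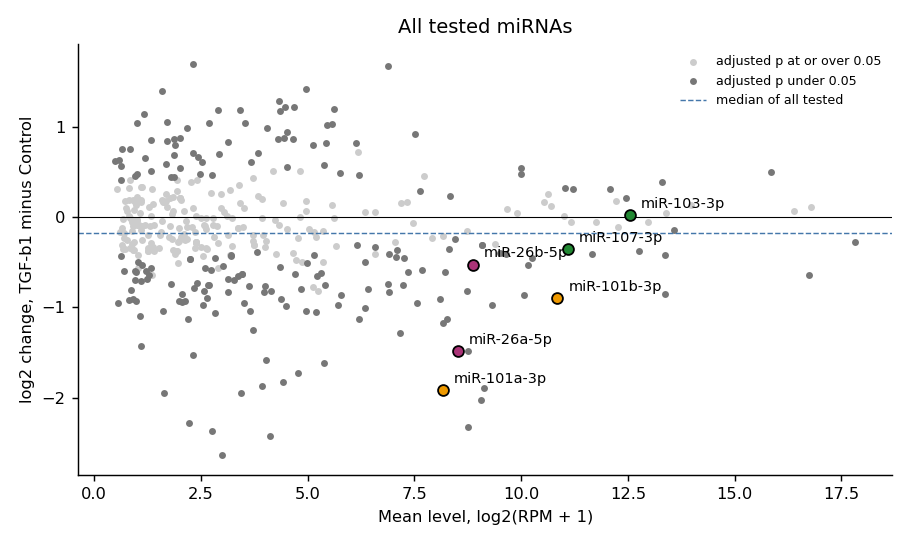
Change in log2(RPM + 1) after TGF-β1 (y axis) against mean level in log2(RPM + 1) (x axis) for the 408 tested miRNAs, dark where the limma adjusted p was under 0.05. The dashed line is the median of all tested miRNAs at -0.17; miR-26a-5p lies at -1.48, miR-26b-5p at -0.53 and miR-103-3p at 0.02.

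Depth was not what limited these values. The guides were counted with 3209 to 10203 reads per library, which gives a counting error of 0.99% to 1.77% of the value. The spread between replicates was larger, with a coefficient of variation of 7.01% in Control and 9.37% in TGF-b1 for miR-26a-5p, and of 10.7% and 4.42% for miR-26b-5p.

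The unequal fall of the guides was examined as the ratio of miR-26a-5p to miR-26b-5p reads inside each library, a measure that no scaling of the library can alter. How the authors assigned reads that match both guides is not stated, and the effect of such reads on the ratio was not tested. The guides were about equally frequent in Control, with ratios of 0.949, 1.02 and 0.996. After TGF-β1 the ratios were 0.591, 0.465 and 0.478, so miR-26b-5p became the more frequent guide in each of these libraries. Their mean fell from 0.988 ± 0.0354 to 0.511 ± 0.0690 (SD, n = 3 libraries a group). As a share of both guides, miR-26a-5p made up 48.7%, 50.5% and 49.9% in Control and 37.1%, 31.7% and 32.4% in TGF-b1. The 95% Wilson interval of TGF-b1 replicate 1, which covers counting error only, ran from 36.3% to 38.0%, above those of replicate 2 (30.8% to 32.6%) and replicate 3 (31.5% to 33.3%).

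The log2 ratio changed by -0.95 ± 0.11 (SE), with a limma adjusted p of 0.0033 over 31 pairs of rows that share a number and an arm and carry the letters a and b. An exact two-sided permutation test of the 6 libraries alone gave p = 0.1, the smallest value that 3 against 3 libraries allow. Leaving out 1 library at a time gave changes from -1.06, without TGF-b1 replicate 1, to -0.89, and the limma adjusted p stayed at or below 0.0220. Changes of such ratios were common, since 41.9% of the 31 pairs passed the same test, 5 with a lower and 8 with a higher a-to-b ratio. The median over the pairs was 0.10, and 1 pair, miR-101a-3p to miR-101b-3p at -1.02, had a more negative value than the miR-26 pair. The letters alone set the sign, and by absolute size 4 pairs changed more than the miR-26 pair. The largest was miR-27a-5p to miR-27b-5p at 1.38. Pairs were matched by name only. In 3 of them the rows differed by at most 1% in every library, and without these the miR-26 pair kept its change of -0.95 (limma adjusted p = 0.0013).

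**Figure D3:**
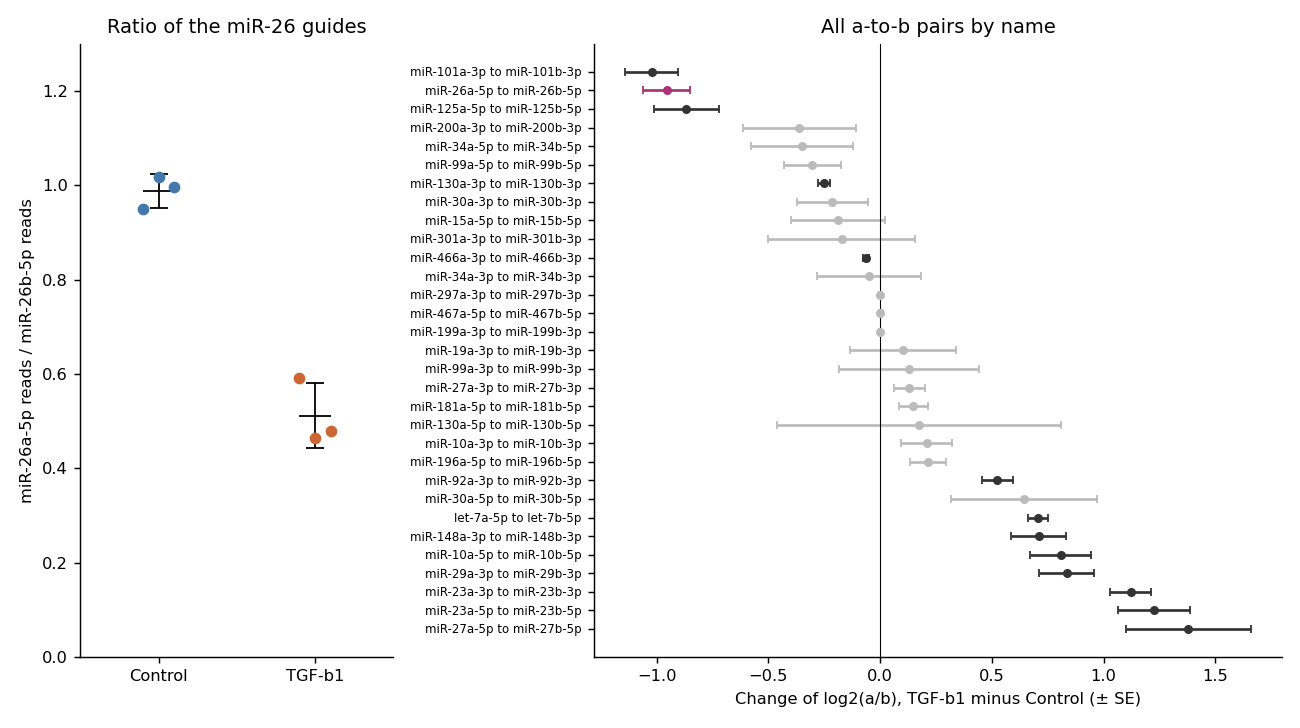
Left, reads of miR-26a-5p divided by reads of miR-26b-5p in each library, with the mean ± SD (n = 3 per group). Right, change of log2(a/b) ± SE after TGF-β1 for 31 pairs, black or purple (miR-26) where the limma adjusted p was under 0.05; the miR-26 ratio lies between 0.949 and 1.02 in Control and between 0.465 and 0.591 in TGF-b1.

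Summed over both guides, the miR-26 seed was carried by 1207, 1032 and 1047 RPM in Control and by 578, 565 and 586 RPM in TGF-b1. The TGF-b1 libraries lay close together and well below all Control libraries. The mean fell from 1095 ± 96.8 to 576 ± 11.0 RPM (SD, n = 3 each), to 52.6% of Control, a log2 ratio of means of -0.93. By exact two-sided permutation the sum had p = 0.1, the lowest that 6 libraries can give. Scaled in the other ways tried, the log2 ratio was between -0.79 and -0.71.

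The passenger arms were nearly absent. All 3 together had 35 reads in the Control libraries and 12 in the TGF-b1 libraries, against 55558 and 31796 guide reads. At such counts none passed the filter on low values, so 0 of the 3 miR-26 hairpins were among the 103 hairpins with both arms tested, and the planned test of the arm ratio could not be fitted. The counts are given as a description.

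miR-26a-1-3p, from the Ctdspl locus, had 6, 6 and 2 reads in Control and 0, 4 and 1 in TGF-b1. The groups overlapped, and the ratio of summed rates was 0.329 with an exact 95% counting interval from 0.0927 to 0.966. miR-26a-2-3p, from the Ctdsp2 locus, had 4, 4 and 5 reads in Control and 4, 1 and 1 in TGF-b1, a ratio of 0.425 (exact 95% counting interval 0.132 to 1.20). In RPM, all 3 TGF-b1 values lay below all 3 Control values. TGF-b1 replicate 1 nevertheless had the same 4 reads as Control replicates 1 and 2, in the largest library, so only the divisor separates it from them. The miR-26a loci thus gave 14 and 13 passenger reads in Control and 5 and 6 in TGF-b1, and a difference between them was not tested. miR-26b-3p, from the Ctdsp1 locus, had 2, 4 and 2 reads in Control and 0, 1 and 0 in TGF-b1, a ratio of 0.115 with an exact 95% counting interval from 0.00259 to 0.858. A count of 0 allows up to 0.176 RPM in these libraries, taking 3 reads as the limit. These intervals treat the reads of a group as 1 pool and leave out the spread between libraries.

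Set against their own guide, the miR-26a passengers made up 97.8 of 100000 miR-26a reads in Control and 102 in TGF-b1, with exact 95% intervals of 64.5 to 142 and 50.9 to 182. For miR-26b the numbers were 28.6 (12.3 to 56.3) in Control and 4.76 (0.120 to 26.5) in TGF-b1. The value for miR-26b in TGF-b1 rests on 1 read, and the intervals of the groups overlap for both hairpin families.

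The miRNAs of the Pank introns offer the closest parallel in gene structure, since miR-103 and miR-107 also lie in introns of a gene family, the pantothenate kinases, and miR-103-3p is also encoded by more than 1 hairpin. Of 5 rows 2 passed the filter. By limma, 1 was lower at an adjusted p under 0.05 and 0 passed the fold threshold in either direction. Over all 408 tested miRNAs, 31.9% were lower at an adjusted p under 0.05 and 7.84% were lower with the fold threshold. With that threshold, 18 of the 408 were higher. The median log2 change of the 2 Pank rows that passed the filter was -0.17, as over all tested miRNAs. miR-103-3p had 6251, 5953 and 5699.7 RPM in Control and 6282, 5944 and 5892 RPM in TGF-b1, and the groups overlapped. On the log2 scale it moved by 0.02 ± 0.06 (SE), with an adjusted p of 0.807 by limma. miR-107-3p had 2532, 2480.1 and 2293 RPM in Control and 2113, 1877 and 1749 RPM in TGF-b1. It fell by 0.35 on the log2 scale (limma adjusted p = 0.00998). The passengers miR-103-1-5p, miR-103-2-5p and miR-107-5p had at most 18 reads in a group.

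miR-26 is also read beside other miRNAs known for repressing Ezh2. Of miR-101a-3p, miR-101b-3p, miR-138-5p, miR-124-3p and miR-214-3p, a list written from general knowledge, 5 of 5 were tested, 3 were lower at an adjusted p under 0.05, 1 of them past the fold threshold, and none was higher by limma. Over all 408 tested miRNAs the shares that were lower were 31.9% and 7.84%. At a limma adjusted p under 0.05, 71 of the 408 were higher, 18 of them past the fold threshold. The median log2 change of the 5 listed rows was -0.50, against -0.17 for all tested miRNAs. It is the value of miR-124-3p, a row near 1 RPM whose change the pseudocount of 1 understates. miR-101a-3p had 489, 450.1 and 431 RPM in Control and 148, 110.2 and 106 RPM in TGF-b1. It fell by 1.92 ± 0.14 (SE) on the log2 scale, with an adjusted p of 4.6e-05 by limma. miR-101b-3p had 2615, 2240.3 and 2268 RPM in Control and 1849, 1069 and 1040.3 RPM in TGF-b1, where replicate 1 stood above the others. Its log2 change was -0.90 (limma adjusted p = 0.00872). miR-124-3p, at 1.38 RPM in Control and 0.694 in TGF-b1, 50.3% of Control, passed narrowly (limma adjusted p = 0.0454). miR-138-5p moved by -0.16 on the log2 scale (limma adjusted p = 0.370) and miR-214-3p by -0.20 (limma adjusted p = 0.507).

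Library by library, miR-26a-5p was compared with 4 of these guides. Its log2 ratio to miR-103-3p changed by -1.50 ± 0.06 (SE) and that to miR-107-3p by -1.13 ± 0.07. It also lost ground to miR-101b-3p, by -0.58 ± 0.20, and this value shrank to -0.39 without TGF-b1 replicate 1. Against miR-101a-3p the ratio moved the other way, by 0.44 ± 0.09, since miR-101a-3p fell further. In each of the 4 comparisons the groups did not overlap, and each exact two-sided permutation p was 0.1, raw and adjusted over the 4 by Benjamini-Hochberg, where no lower value can be reached. All 4 ratios share miR-26a-5p, so they are not separate results. The share of all tested miRNAs whose ratio to miR-26a-5p would separate the groups was not computed.

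**Figure D4:**
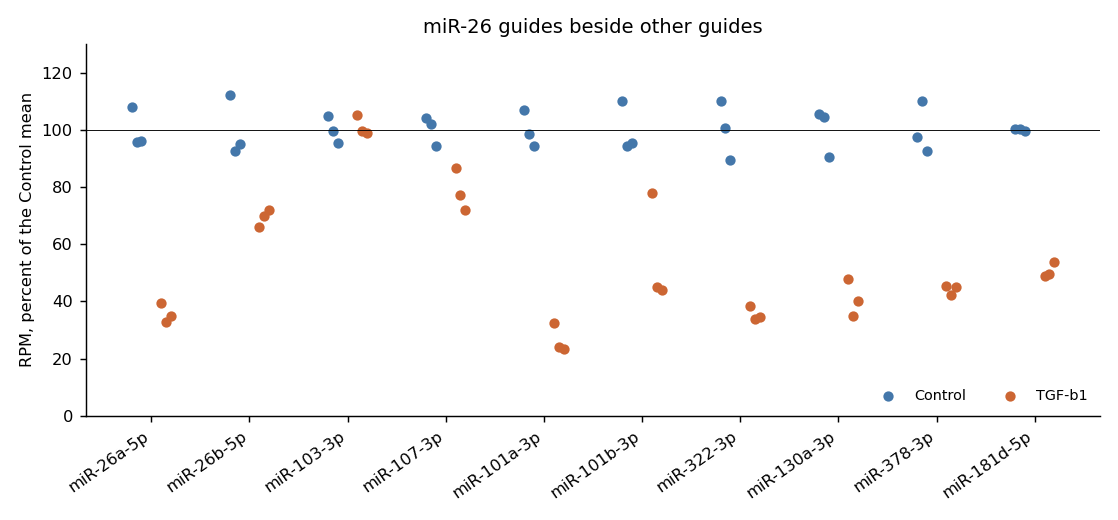
RPM in each library as a percent of the Control mean of the same miRNA (y axis, from 0), for the miR-26 guides, the Pank intron guides, the miR-101 guides and miRNAs with a pattern near that of miR-26a-5p. The miR-26a-5p libraries of TGF-b1 average 35.8% of Control and those of miR-26b-5p 69.2%, while miR-103-3p averages 101%.

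Among 77 other tested miRNAs with a mean of at least 100 RPM, those nearest to miR-26a-5p over the 6 libraries were miR-322-3p, miR-130a-3p, miR-378-3p, miR-101a-3p and miR-181d-5p. The distance is Euclidean, on log2(RPM + 1) with the Control mean of each miRNA subtracted. miR-322-3p was nearest at 0.137 and went from 640 ± 65.4 to 228 ± 15.6 RPM (SD, n = 3 each), to 35.6% of Control. The others lay at 0.388, 0.603, 0.790 and 0.913, and their TGF-b1 means were 40.9%, 44.1%, 26.5% and 50.8% of Control. miR-26b-5p, at a distance of 1.68, would take place 23 in the same order, so 22 of these miRNAs lay nearer to miR-26a-5p than the guide that shares its seed. With the Control mean subtracted, the distance mostly follows how far a log2 change lies from that of miR-26a-5p. The order thus restates the log2 changes and is not separate evidence.

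**Figure D5:**
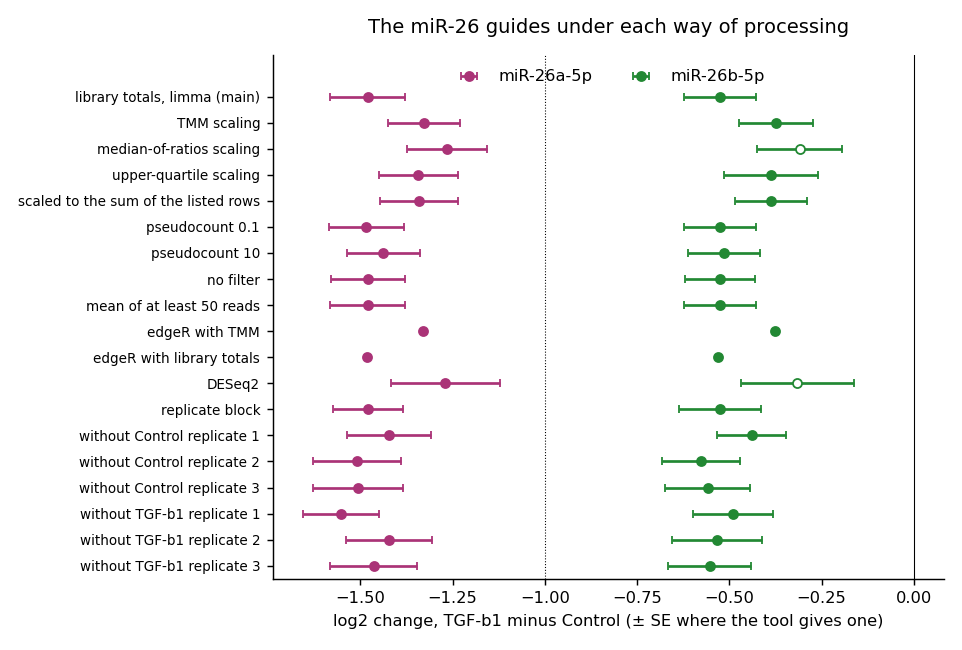
Log2 change after TGF-β1 of miR-26a-5p (purple) and miR-26b-5p (green) under each way of processing, with bars of ± SE where the tool gives one and open points where the adjusted p was 0.05 or more. The dotted line marks the fold threshold of -1; miR-26a-5p lies between -1.55 and -1.26 and miR-26b-5p between -0.58 and -0.31.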

How the data were processed

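The authors trimmed adaptors, removed reads under 18 nt and of low quality, and compared the rest with known miRNAs of miRBase version 17 using Bowtie, whose version is not given in the sources used here. How reads matching several miRNAs were counted is not stated. They deposited 1 table in a unit headed TPM, which is RPM here, per 1000000 reads of a library total and with no scaling by length. Library totals were recovered as the integers that make 100% of values whole reads within 0.002, so counts could be used in alternatives.

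Values of log2(RPM + 1) were fitted with limma 3.58.1 under R 4.3.3, using a trended prior and Benjamini-Hochberg adjustment, for every miRNA that passed the filterByExpr function of edgeR 4.0.16 (minimum count 10). A log2 change understates that of rows near 1 RPM. Calls needed an adjusted p under 0.05 and, with the fold threshold, an absolute log2 change above 1. Ratios of rows were fitted the same way, and single measures used exact permutation tests (scipy 1.17.1). Alternatives were other scalings (factors from the tested rows), pseudocounts of 0.1 and 10, filters, edgeR and DESeq2 1.42.0 on recovered reads, a replicate block and each library left out. The fits were run on simulated reads with known changes in both directions and the same spread between libraries for every row. These reads held no shift in the share outside the listed rows, so the fits were not checked for such a shift. Hairpins were placed on NCBIM37 with GENCODE vM1, the build the study used for its RNA reads, and folded with ViennaRNA 2.7.2. PCR copies are not separate molecules, so intervals and limits hold for counting error alone. No library repeated another of its group, the smallest chi-square of counts per degree of freedom being 44.3.

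Named miRNAs are the miR-26 rows, the Pank intron and Ezh2 lists, and the 5 nearest patterns. The members and lists were chosen with earlier results of these data known.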

Additional observations from a re-analysis of the deposited data

Results flagged for a closer look

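Reads that belong to none of the listed rows, which the comparisons above do not use, went from 20.4% ± 0.142 of all reads in the 3 Control libraries to 27.7% ± 0.752 in the 3 TGF-b1 libraries (SD), by 7.32 percentage points (exact two-sided permutation p = 0.1, the smallest possible with 3 against 3 libraries). The share is the library total less the sum of the rows, so reads counted in several rows would make it too small. It is in the divisor of every RPM value of miR-26. Scaled to the listed rows alone, the log2 change of miR-26a-5p was -1.34 and that of miR-26b-5p -0.39, while the ratio of the guides does not involve it.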

How the results depend on the processing

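For miR-26a-5p, all 18 alternatives kept the fall past the fold threshold with an adjusted p under 0.05, from -1.48 to -1.26 on the log2 scale, and leaving out 1 library at a time gave -1.55 to -1.42. For miR-26b-5p, which passed the fold threshold under none of the 18, 16 kept a fall with an adjusted p under 0.05. The exceptions were median-of-ratios scaling (-0.31) and DESeq2 (-0.32), which was run with its own median-of-ratios factors. They thus share a kind of scaling, and other causes were not tested. Left-out libraries gave -0.58 to -0.44. All 11 alternatives for the ratio of the guides kept its direction and its limma adjusted p under 0.05, and the fit without near-identical pairs was chosen after seeing the data. Libraries were not paired by their replicate numbers: same-numbered deviations correlated at -0.08, -0.21 and -0.34, and no library correlated best with its own number. With the replicate block, miR-26a-5p stayed at -1.48, miR-26b-5p at -0.53 (limma adjusted p = 0.0113) and the ratio at -0.95 (limma adjusted p = 0.0237), with 18 miRNAs called higher and 32 lower.

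Counts over all miRNAs moved more. Higher calls numbered 18, against 31 with median of ratios, 32 with a pseudocount of 0.1, 2 with a pseudocount of 10, 45 with edgeR and TMM, 32 with edgeR and library totals and 46 with DESeq2. Lower calls numbered 32, against 54 with a pseudocount of 0.1, 15 with a pseudocount of 10 and 54 with edgeR and library totals. Lower miRNAs at any fold numbered 130, against 72 with DESeq2. A log2 change above 2, the stricter threshold in the study's methods, left 0 higher by limma (228 miRNAs had an unadjusted p under 0.05; no other tool was run at this threshold) and 6 lower, and neither guide of miR-26. Lower calls made up 64% on library totals, 49.0% with TMM, 41.5% with median of ratios and 40.3% with DESeq2. The test of the arm ratio of the miR-26 hairpins and its alternatives were not run, since no passenger passed the filter.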
